A study of Mus musculus with 15 samples.

Results

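Mouse hematopoietic progenitors that are heterozygous for Ddx41 and carry a retrovirus with the R525H form of DDX41 (Het R525H) were compared with progenitors of a line with both copies of Ddx41 that carry an empty retrovirus (WT empty). The comparison covers 6 of the 15 sequenced samples, 3 in each group, taken by their sample titles, and was run across 14548 of the 55359 genes listed. The heterozygous line with empty retrovirus (Het empty, 3 samples) was set against the same WT empty samples, so that genes that differed with R525H and not with the empty vector could be picked out. Per the labels, the genotypes are hi-Ddx41+/- for Het R525H and Het empty and hi-Ddx41+/+ for WT empty. Progenitors of both genotypes came from fetal liver, were immortalized with Hoxb8, grew in medium with β-estradiol, spent 2 days with the retrovirus and were sorted for GFP. Total RNA was depleted of ribosomal RNA and sequenced with strand information. The other 6 samples are the heterozygous line with wild-type DDX41 (Het DDX41) or G173R (Het G173R). Nothing in the labels says that a genotype is represented by more than 1 immortalized line, that replicate samples were grown apart, or which species the DDX41 insert is from. Het R525H and WT empty differ in genotype, cell line and vector at the same time, and these cannot be told apart in their comparison.

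DDX41 is a DEAD-box RNA helicase of the nucleus that associates with the spliceosome and has been linked to snoRNA processing, to R-loop control and to sensing of cytosolic DNA. In people, inherited loss of 1 copy predisposes to myeloid neoplasia, and R525H, a substitution in the helicase core, is a recurrent acquired change in those neoplasms. Progenitors immortalized with Hoxb8 under estrogen control are held at a stage that can still give rise to granulocytes, macrophages and related cells once the estrogen is withdrawn.

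The group of each sample rests on its title. For 12 of the 15 samples, among them all 3 of Het R525H and all 3 of Het empty, the deposited table carries the code of a different group in its name, and those of Het R525H carry the code of wild-type DDX41. The counts are per gene and do not tell which vector a library holds, so every statement on R525H below holds for the libraries titled so. Summed expected counts, the estimated reads per gene that RSEM reports, were 34982413, 40527116 and 22104066 in Het R525H, 30947480, 35170636 and 32413483 in Het empty, and 33668669, 36416176 and 37109795 in WT empty. Library 3 of Het R525H was the shallowest, and the median absolute log2 difference per gene was 0.255 and 0.273 between it and the other 2 libraries of its group, against 0.121 between those 2. Progenitor transcripts were detected in all 15 libraries, with Cd34 at 500.79 to 746.09 TPM (a scale per transcript length), Kit at 78.35 to 127.28, Flt3 at 44.23 to 113.55 and Hoxb8 at 23.14 to 45.06. Hoxa9 did not exceed 0.01 TPM, and Alb, Col1a1, Cdh5 and Hba-a1, which mark hepatocytes, fibroblasts, endothelium and red cells, were at 0 in all 15. Pecam1, another gene of endothelium, was at 1.76 to 7.68 TPM. In such bulk samples, fewer cells of a type and less RNA per cell cannot be told apart.

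The targeted gene was lower in the heterozygous line. Ddx41 was at 32.7, 34.6 and 29.1 CPM in Het R525H, at 29.4, 33.0 and 28.7 CPM in Het empty, and at 58.8, 63.4 and 55.6 CPM in WT empty, where CPM is counts scaled to a common library total. No Het R525H library reached a WT empty library, and Het R525H overlapped Het empty. Ddx41 fell in Het R525H by 0.88 on the log2 scale (SE 0.11; adjusted p = 0.000247, edgeR), to 54.1 percent of WT empty. Between Het R525H and Het empty its log2 difference was 0.08, with a 95 percent interval from -0.16 to 0.33. Whether a transcript of the vector would be counted as Ddx41 was not tested.

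Of the 14548 genes, 972 (6.68 percent) were called between Het R525H and WT empty at an adjusted p under 0.05 in edgeR's quasi-likelihood test, 449 higher (3.09 percent) and 523 lower (3.59 percent). The median log2 fold change was 1.14 over the genes called higher and -0.77 over the genes called lower, against -0.01 over all genes tested. The fitted change was at least 2-fold for 237 of those called higher and 203 of those called lower. At an unadjusted p under 0.05 there were 2736 genes (18.8 percent), and the libraries of Het R525H and WT empty did not overlap in 23.5 percent of the genes tested. For Het empty against the same WT empty libraries, 532 genes were called (3.66 percent), 277 higher (1.9 percent) and 255 lower (1.75 percent), and 17.2 percent did not overlap. Same-numbered Het empty and WT empty libraries deviated together. With the replicate number as a block 1352 genes were called between these 2 groups, and 2522 between Het R525H and WT empty. The direct comparison of Het R525H with Het empty called 2 genes, both lower (0.0137 percent), and 725 genes (4.98 percent) had an unadjusted p under 0.05 there. Without Het R525H library 1 or library 2, the 972 fell to 604 and 632.

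**Figure D1:**
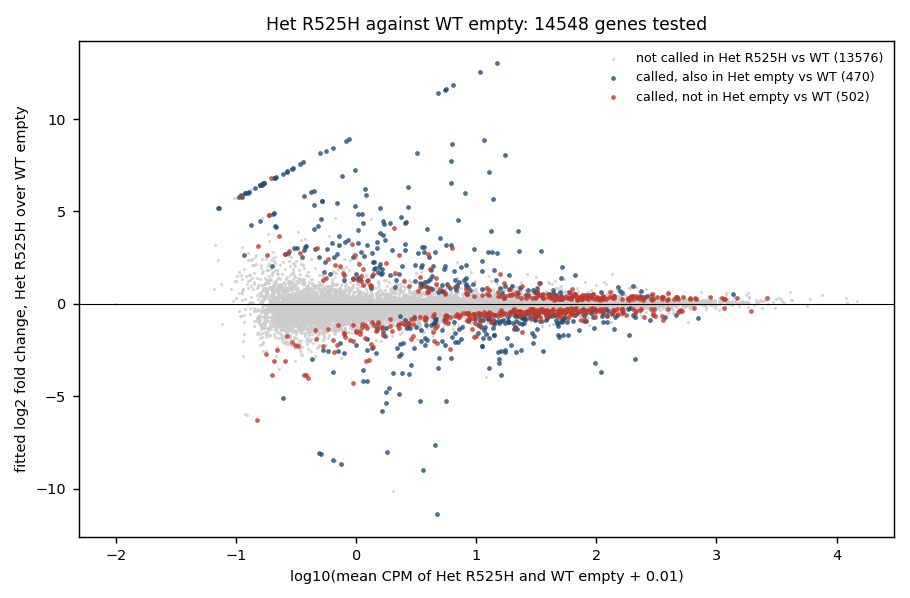
Each point is 1 of 14548 genes, with the log10 mean CPM of Het R525H and WT empty across and the fitted log2 fold change of Het R525H over WT empty up. The 502 genes called here and not in Het empty against WT empty (red) have medians of 0.42 where higher and -0.56 where lower, closer to 0 than the 470 genes called in both (blue, 2.76 and -1.12), and grey points were not called.

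The genes that the empty-vector comparison did not call numbered 502 (3.45 percent of those tested), 207 higher (1.42 percent) and 295 lower (2.03 percent) in Het R525H, and 1358 with the replicate number as a block. Their changes were small: the median log2 fold change against WT empty was 0.42 for the higher genes, and the same genes had a median of 0.24 in Het empty against WT empty and of 0.18 in Het R525H against Het empty. For the lower genes the 3 medians were -0.56, -0.31 and -0.25. The 470 genes called in both comparisons had larger changes in Het R525H against WT empty, with medians of 2.76 for the 242 higher and -1.12 for the 228 lower genes. Called in 1 comparison and not in the other does not make a gene differ between them: of the 502, the direct comparison of Het R525H with Het empty gave an unadjusted p under 0.05 for 189 and an adjusted p under 0.05 for 2. In 239 of the 502, all 3 Het R525H libraries lay beyond all 3 libraries of Het empty and of WT empty on the same side, as they did in 6.56 percent of all genes tested. The 502 were chosen for their difference from WT empty, so nothing is read from that count.

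The border of the selection is narrow. Pira2 counts among the 502 with an adjusted p of 0.0516 in Het empty against WT empty, and Gsap does not, with 0.0498 (edgeR). On the other border, Apob was called in Het R525H against WT empty at an adjusted p of 0.04996, while Arhgap27os3 was not, at 0.05003. The number selected fell to 225, 258 and 298 without Het R525H library 1, 2 or 3 and to 313 without WT empty library 3.

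Kinase genes and a midbody gene led the genes that were lower with R525H. Pak2 encodes a p21-activated kinase that acts on the cytoskeleton and on cell survival. It was at 141, 135 and 133 CPM in Het R525H, at 210, 191 and 195 CPM in Het empty, and at 188, 196 and 189 CPM in WT empty. The Het R525H libraries lay below all others, and Het empty and WT empty overlapped. Pak2 was lower in Het R525H than in Het empty by a log2 difference of -0.54 (SE 0.07; adjusted p = 0.0187, edgeR), and the log2 fold change against WT empty was -0.49 in Het R525H and 0.06 in Het empty. Cep55 encodes a protein of the midbody that recruits the machinery of abscission at the end of cytokinesis. It was at 66.8, 63.3 and 55.7 CPM in Het R525H, at 91.9, 97.8 and 93.1 CPM in Het empty, and at 92.5, 97.3 and 86.6 CPM in WT empty. Again no Het R525H library reached Het empty or WT empty. Cep55 in Het R525H did overlap Het DDX41, where it was at 73.4, 74.4 and 63.6 CPM. Its log2 difference from Het empty was -0.60 (SE 0.08; adjusted p = 0.0308, edgeR), and the log2 fold change against WT empty was -0.57 in Het R525H and 0.03 in Het empty. These were the only genes edgeR called in the direct comparison, where DESeq2 called 60, and a model of the Het R525H and Het empty libraries alone called 0 (657 at an unadjusted p under 0.05). Pak2 was not called there without Het R525H library 2 (log2 difference -0.54) or 3 (-0.53) or Het empty library 1 (-0.51), and Cep55 without Het R525H library 2 (-0.63) or 3 (-0.54) or any Het empty library (-0.63, -0.59 and -0.62).

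Stk4, the Hippo pathway kinase also known as MST1, was at 261, 261 and 230 CPM in Het R525H, at 435, 435 and 361 CPM in Het empty, and at 446, 500 and 451 CPM in WT empty. Every Het R525H library was below every library of the other 2 groups. Stk4 fell against WT empty by 0.89 on the log2 scale (SE 0.11; adjusted p = 0.000136, edgeR), whereas the direct comparison with Het empty, at a log2 difference of -0.71, missed the threshold (adjusted p = 0.0629). Chchd1, a protein of the small mitochondrial ribosomal subunit, was at 25.7, 23.8 and 22.7 CPM in Het R525H, at 48.4, 48.3 and 41.7 CPM in Het empty, and at 42.1, 52.6 and 44.2 CPM in WT empty. This was the largest of the 8 falls named by their direct p, at 52.0 percent of the WT empty level (log2 fold change -0.94, SE 0.15; adjusted p = 0.00124, edgeR). The other named falls against WT empty were Man2c1, a cytosolic α-mannosidase (log2 fold change -0.70), Adgrl1, an adhesion G protein-coupled receptor (-0.59), Map4k2, a kinase upstream of JNK (-0.47), and Galns, a lysosomal sulfatase (-0.41). In edgeR none of these 6 was called against Het empty, where their log2 differences ranged from -0.94 to -0.39 and their adjusted p was at least 0.0629. DESeq2 called all 6 there, with an adjusted p from 5.55e-07 to 4.87e-05. For Stk4 and Man2c1 the Het empty libraries also lay below all WT empty libraries, with log2 fold changes of -0.18 and -0.15.

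Among the genes that were higher with R525H, Clk3, a kinase that phosphorylates SR splicing factors, was at 71.9, 79.0 and 84.2 CPM in Het R525H, at 56.1, 57.9 and 58.3 CPM in Het empty, and at 55.9, 52.9 and 56.5 CPM in WT empty. Snhg1, a non-coding gene whose introns hold snoRNAs, was at 334, 343 and 355 CPM in Het R525H, at 231, 205 and 212 CPM in Het empty, and at 277, 192 and 248 CPM in WT empty. In both genes the Het R525H libraries were above all others, while the spread of Snhg1 within WT empty was wide. The log2 fold change against WT empty was 0.51 for Clk3 (SE 0.07; adjusted p = 0.000506) and 0.52 for Snhg1 (SE 0.11; adjusted p = 0.0099), and against Het empty it was 0.45 and 0.67 with an adjusted p of 0.0629 for each (edgeR). Hbs1l, a factor of ribosome rescue, was at 275, 287 and 280 CPM in Het R525H, at 213, 219 and 206 CPM in Het empty, and at 214, 230 and 211 CPM in WT empty, again without overlap. Igf2r, the receptor that carries mannose 6-phosphate tagged enzymes to lysosomes, had the highest fold of the 8, at 6.62, 6.96 and 6.54 CPM in Het R525H, at 4.10, 3.06 and 2.42 CPM in Het empty, and at 2.36, 3.18 and 2.00 CPM in WT empty (log2 fold change against WT empty 1.41, SE 0.22; adjusted p = 0.000937, edgeR). Dld, a subunit shared by mitochondrial dehydrogenase complexes, Tapt1, the zinc finger gene Zfp131 and Fam133b had log2 fold changes of 0.44, 0.53, 0.34 and 0.55 against WT empty. In Het empty against WT empty these were 0.17, 0.20, 0.07 and -0.03. For Dld and Tapt1 the Het empty libraries also lay above all WT empty libraries. Fam133b was not called against WT empty without Het R525H library 3 (log2 fold change 0.41) or WT empty library 1 or 2 (0.56 and 0.44). In edgeR none of these 8 rises was called against Het empty. DESeq2 called all 8 there, with an adjusted p from 1.79e-07 to 0.0124. A model of the Het R525H and WT empty libraries alone did not call Snhg1 or Fam133b.

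**Figure D2:**
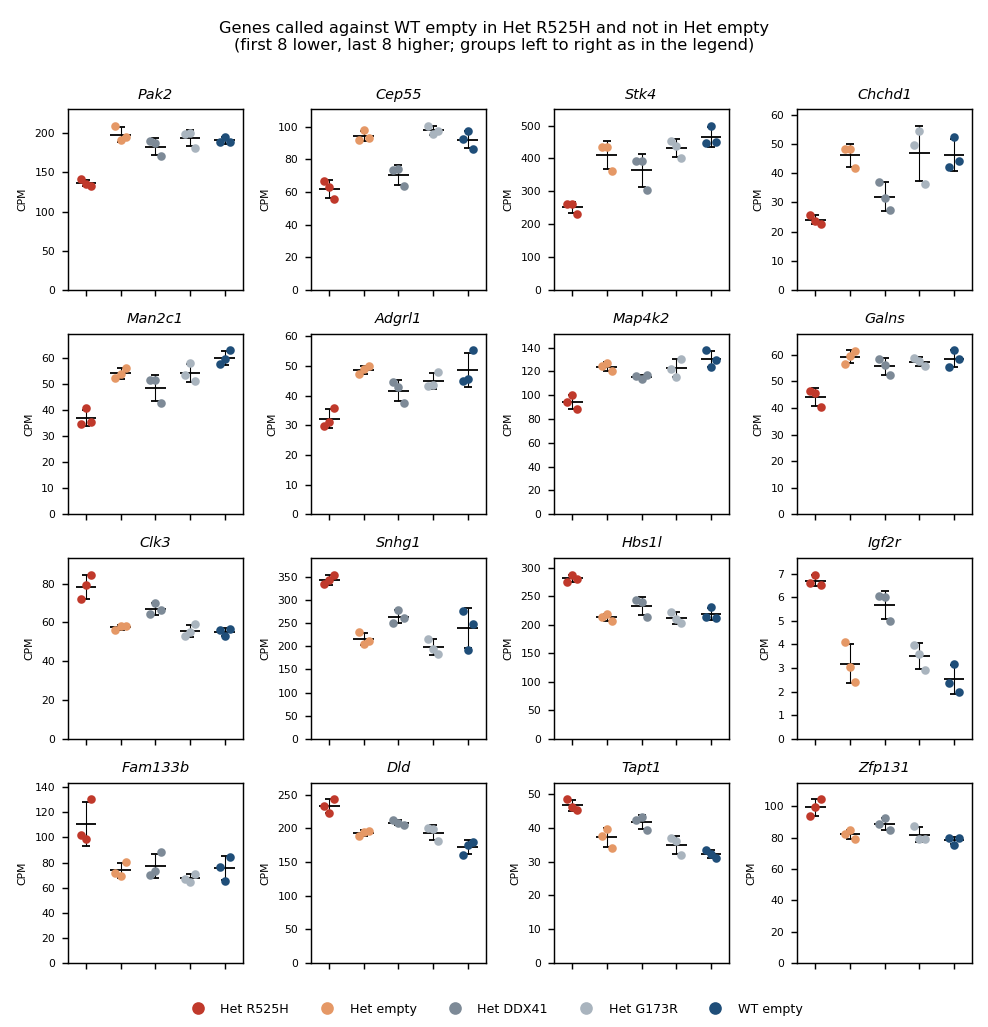
CPM per library (points), with the mean (bar) and SD (whisker, n = 3), for the 16 named genes called against WT empty in Het R525H and not in Het empty; axes start at 0. The 3 Het R525H points lie apart from the Het empty and WT empty points in every panel, by the rule that chose the genes.

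The same 16 genes had values in the groups that did not choose them. The Het DDX41 mean lay between the Het R525H mean and the Het empty mean in 16 of the 16. Its libraries did not overlap those of Het R525H in 15, all but Cep55, against 10.7 percent of all genes tested. The Het G173R mean lay between them in 6, and its libraries did not overlap those of Het R525H in 16, against 11.1 percent of all genes. How many of all genes had such a mean in between was not counted. The genes were picked for standing apart in Het R525H, so the counts only describe them and show nothing particular to R525H.

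Promoter windows are shown for Cep55, called against Het empty, and for Stk4, Snhg1 and Clk3, which missed the threshold there in edgeR with an adjusted p of 0.0629 each, to set their sequence beside their values. Each runs from 250 bases before to 50 bases after the start, 300 bases in RefSeq's annotation of GRCm38.p6, and 76 of the 108 named genes had such an entry. Capitals mark matches, on either strand, to the cell cycle homology region TTTGAA, the CCAAT box, the GC box GGGCGG, the E-box CACGTG and the TATA box TATAAA. The Cep55 window (chr19:38054734-38055033, plus strand, the first of 2 entries), the Stk4 window (chr2:164073888-164074187, plus strand), the Snhg1 window (chr19:8723237-8723536, plus strand) and the Clk3 window (chr9:57765065-57765364, minus strand) read, 5′ to 3′:
Cep55: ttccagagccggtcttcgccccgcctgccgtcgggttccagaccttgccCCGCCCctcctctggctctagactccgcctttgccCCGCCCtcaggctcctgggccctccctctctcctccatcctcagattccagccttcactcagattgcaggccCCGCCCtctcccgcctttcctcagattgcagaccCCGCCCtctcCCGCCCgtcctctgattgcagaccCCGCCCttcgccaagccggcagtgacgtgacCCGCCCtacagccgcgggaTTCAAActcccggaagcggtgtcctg
Stk4: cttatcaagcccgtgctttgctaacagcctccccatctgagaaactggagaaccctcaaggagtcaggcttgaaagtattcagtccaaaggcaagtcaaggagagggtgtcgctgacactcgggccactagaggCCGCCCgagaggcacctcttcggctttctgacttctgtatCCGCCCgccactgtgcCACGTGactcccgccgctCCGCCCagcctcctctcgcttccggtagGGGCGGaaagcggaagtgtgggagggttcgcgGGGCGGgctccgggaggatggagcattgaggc
Snhg1: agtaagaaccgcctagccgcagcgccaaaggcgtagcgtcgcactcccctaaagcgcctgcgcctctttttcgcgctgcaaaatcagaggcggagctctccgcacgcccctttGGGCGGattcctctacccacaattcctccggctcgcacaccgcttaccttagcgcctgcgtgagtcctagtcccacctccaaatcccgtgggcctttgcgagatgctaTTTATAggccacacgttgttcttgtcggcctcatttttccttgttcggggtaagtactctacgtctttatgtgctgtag
Clk3: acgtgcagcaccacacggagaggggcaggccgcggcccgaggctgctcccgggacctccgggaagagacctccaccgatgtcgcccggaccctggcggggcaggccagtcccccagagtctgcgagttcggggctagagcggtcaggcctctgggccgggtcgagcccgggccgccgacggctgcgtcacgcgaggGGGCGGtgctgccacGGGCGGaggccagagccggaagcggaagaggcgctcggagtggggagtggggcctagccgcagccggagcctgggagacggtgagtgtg
The Cep55 window held 7 GC boxes and 1 TTTGAA match, and that of Stk4 held 5 GC boxes and 1 E-box. The Snhg1 window held 1 GC box and 1 TATA box, and that of Clk3 held 2 GC boxes. Over all 32851 windows of this length, 35.7 percent held a GC box, 37.4 percent a CCAAT box, 17.9 percent TTTGAA, 13.6 percent a TATA box and 7.15 percent the E-box. CG dinucleotides numbered 22 in Cep55, 20 in Stk4, 25 in Snhg1 and 33 in Clk3, against a median of 7 per window. A match is only a description of letters. Pak2 had no entry.

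The largest differences from WT empty were on-off patterns, and Het empty was high in the same genes as Het R525H. Pja1, a RING-type ubiquitin ligase, was at 29.1, 31.1 and 28.5 CPM in Het R525H, at 30.2, 30.2 and 26.2 CPM in Het empty, and had 0 counts in all 3 WT empty libraries. Its level was at least 1090-fold higher in Het R525H than in WT empty, taking 3 counts over the group as the floor. Zfp462, a zinc finger gene, Fgl2, a fibrinogen-like secreted protein, Pdlim1, a cytoskeletal adaptor, Man1a, a Golgi mannosidase, and Spon1, a matrix protein, also had 0 counts in WT empty, and were at least 770-fold, 480-fold, 425-fold, 370-fold and 333-fold higher in Het R525H. Tle3, a Groucho corepressor, had 3 counts in all of WT empty, a ratio of 488 with a counting interval from 166 to 2370, and Cln8, a protein of the endoplasmic reticulum, had 2, a ratio of 350 with an interval from 96.4 to 2890; these intervals cover counting error only. Agap1, a regulator of Arf GTPases, was at 21.6, 20.0 and 27.4 CPM in Het R525H, at 24.4, 22.6 and 21.99 CPM in Het empty, and at 0, 0 and 0.13 CPM in WT empty. Aldh1l2, a mitochondrial enzyme of folate metabolism, was at 15.7, 17.5 and 71.4 CPM in Het R525H, at 13.1, 18.3 and 37.9 CPM in Het empty, and at 0.0281, 0.0554 and 0.286 CPM in WT empty. Library 3 was the highest in each group for Aldh1l2, and the groups still did not overlap. All 10 were called in Het empty against WT empty too, and the direct comparison of Het R525H with Het empty gave log2 differences from -0.17 to 0.58 with none called.

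Trim6, a ubiquitin ligase of the tripartite motif family, led the falls, with 0 counts in Het R525H and in Het empty against 8.63, 8.81 and 10.9 CPM in WT empty. It was at least 305-fold lower in Het R525H. Tmem141, a small membrane protein, had 1 count over the 3 Het R525H libraries and was at 6.78, 7.15 and 7.40 CPM in WT empty, a ratio of 685 with a counting interval from 123 to 27100. Tshz3, a zinc finger gene of the teashirt family, was at 0.0875, 0.025 and 0 CPM in Het R525H, against 10.2, 9.83 and 7.14 CPM in WT empty. Qsox1, a sulfhydryl oxidase, and Hsh2d, an adaptor of hematopoietic cells, were at 2.48 and 2.72 percent of their WT empty means. Mzb1, an endoplasmic reticulum chaperone of lymphoid cells, was the most abundant of the 10 in WT empty, at 15.2, 16.5 and 15.1 CPM in Het R525H, 14.7, 15.7 and 16.3 CPM in Het empty, and 181, 228 and 200 CPM in WT empty. Its log2 fold change was -3.70 (SE 0.09; adjusted p = 2.26e-11, edgeR), and the log2 difference between Het R525H and Het empty was 0.00, with a 95 percent interval from -0.18 to 0.19. Lama5, a laminin chain, Rab6b, a trafficking GTPase, and the NuRD remodeler Chd3 were at 6.89, 9.01 and 9.14 percent of WT empty. In Chd3 and in Ifi203, a gene of the HIN-200 family, Het R525H was below Het empty in every library: Chd3 was at 1.46, 1.65 and 3.31 CPM in Het R525H, at 3.78, 3.60 and 4.37 CPM in Het empty, and at 21.2, 24.3 and 24.8 CPM in WT empty. The direct test called neither (adjusted p = 0.958 for Chd3 and 0.999 for Ifi203, edgeR).

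**Figure D3:**
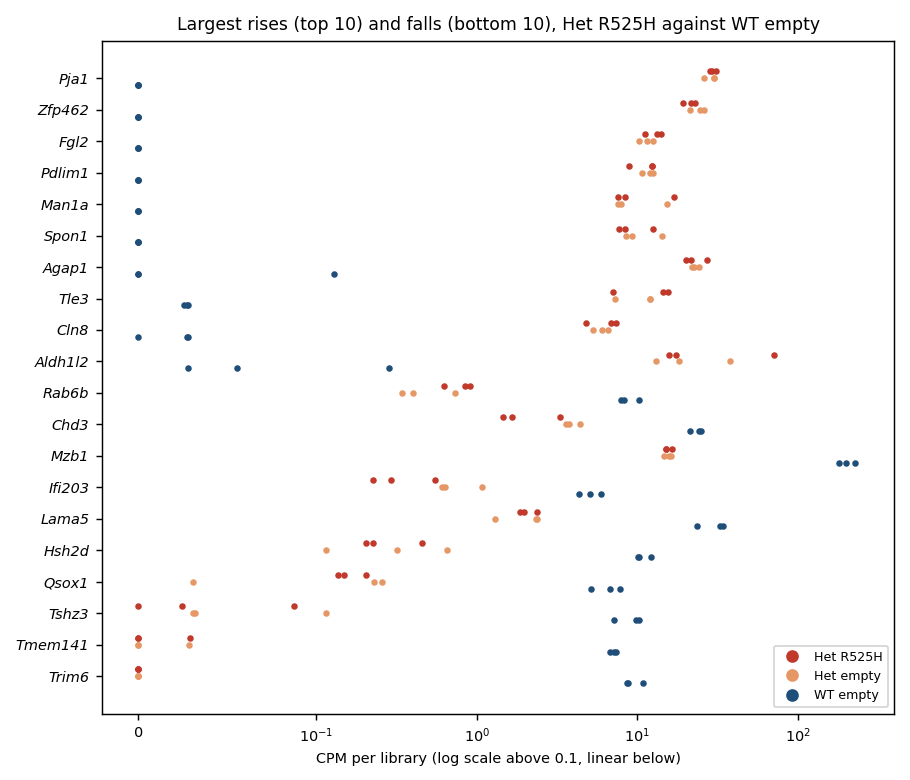
CPM per library for the 10 largest rises and 10 largest falls of Het R525H against WT empty, on an axis that is logarithmic above 0.1 CPM and linear below. In all 20 genes the Het R525H points and the WT empty points do not overlap, and Het empty is on the same side of WT empty as Het R525H. In Ifi203 and Chd3 the Het R525H mean is 45.9 and 54.7 percent of that of Het empty, without overlap of the libraries.

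The gene lists here and below were chosen with earlier results of these data known, so their counts describe the lists and test nothing. Of the 12 tested genes on the mast cell and basophil list, 7 fell in Het R525H and 0 rose. Of all genes, 3.59 percent were called lower and 3.09 percent higher. The median log2 fold change of the list was -0.53, against -0.01 over all genes. Ms4a2, a chain of the IgE receptor, was at 3.15, 3.05 and 2.68 CPM in Het R525H, at 4.22, 4.30 and 5.02 CPM in Het empty, and at 32.7, 36.1 and 14.04 CPM in WT empty. Cpa3, the mast cell carboxypeptidase, was at 14.7, 11.6 and 15.03 CPM in Het R525H, at 15.2, 14.9 and 17.3 CPM in Het empty, and at 46.9, 58.7 and 33.7 CPM in WT empty. WT empty library 3 was the lowest of its group for both, and was above every Het R525H and Het empty library. Il1rl1, the IL-33 receptor, Prss34, a basophil protease, and the chymase Cma1 fell too, with log2 fold changes of -2.99, -2.21 and -4.18 (adjusted p from 1.98e-05 to 0.000666, edgeR), and Cma1 did not exceed 2.71 CPM in WT empty. Kit and the vesicular amine transporter Slc18a2 had log2 fold changes of -0.33 and -0.74. A model of the Het R525H and WT empty libraries alone did not call Kit. Het empty had 6 of the 12 called lower than WT empty, and no member was called between Het R525H and Het empty. Siglecf, found on eosinophils, was at 54.6, 56.6 and 49.4 CPM in Het R525H, at 50.3, 56.2 and 50.9 CPM in Het empty, and at 102, 111 and 97.03 CPM in WT empty, and was the only called gene of 5 tested on the eosinophil list (log2 fold change -0.95, SE 0.10; adjusted p = 5.93e-05, edgeR).

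On the monocyte and macrophage list, 5 of 18 tested genes rose and 3 fell, against 3.09 percent of all genes called higher and 3.59 percent called lower, with a median log2 fold change of 0.33. Lyz2, the lysozyme of macrophages and granulocytes, was at 11.5, 12.2 and 11.6 CPM in Het R525H, at 13.1, 14.3 and 11.5 CPM in Het empty, and at 2.70, 2.82 and 3.50 CPM in WT empty. Itgam, the CD11b integrin chain, was at 12.6, 13.2 and 10.2 CPM in Het R525H, at 9.73, 12.6 and 7.72 CPM in Het empty, and at 4.19, 4.24 and 5.17 CPM in WT empty. These genes were higher in every Het R525H and Het empty library, by 1.97 and 1.41 on the log2 scale in Het R525H (adjusted p = 2e-06 and 0.000207, edgeR). Cd14, the co-receptor for lipopolysaccharide, was at 71.2, 83.2 and 82.7 CPM in Het R525H, at 56.4, 59.7 and 56.8 CPM in Het empty, and at 36.3, 47.1 and 51.9 CPM in WT empty. Het R525H was above both other groups in every library for Cd14, which was called against WT empty (log2 fold change 0.81, SE 0.11; adjusted p = 0.000514) and not against Het empty (0.46, with a 95 percent interval from 0.21 to 0.70; adjusted p = 0.388, edgeR). Csf2ra, the GM-CSF receptor chain, and Ly6c2 rose by 1.13 and 4.36. Fcgr1, a high-affinity IgG receptor, fell by 0.97, Ccr2, the receptor for the chemokine CCL2, fell by 1.38 and Fn1, fibronectin, fell by 0.62. The summed level of the 18 genes was 1502 to 1632 CPM in Het R525H, 1583 to 1648 CPM in Het empty and 1791 to 2069 CPM in WT empty, so the sum was lower in Het R525H than in WT empty although the median member was higher.

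Among genes of late neutrophil granules, 1 of 13 rose and 1 fell, against 3.09 percent of all genes called higher and 3.59 percent called lower. The median log2 fold change of the list was 1.14 in Het R525H and 0.68 in Het empty, each against WT empty. Its summed level was 119, 122 and 111 CPM in Het R525H and 117, 121 and 90.9 CPM in Het empty. In WT empty it was 258, 315 and 219 CPM, so the sum was lower in Het R525H although the median member was higher. In libraries 1 and 2 alone, 5 members rose and 1 fell in Het R525H. In that fit 1904 of all genes were called, against 972 with all libraries. S100a8, a calcium-binding protein of neutrophils, was at 0.962, 1.102 and 1.91 CPM in Het R525H, at 1.09, 1.27 and 1.21 CPM in Het empty, and at 0.0281, 0.111 and 0.156 CPM in WT empty, a log2 fold change of 3.68 (adjusted p = 0.000118, edgeR) at a low level. Mmp8, the neutrophil collagenase, was at 24.0, 24.1 and 9.03 CPM in Het R525H, at 27.4, 30.4 and 11.7 CPM in Het empty, and at 174, 224 and 135 CPM in WT empty, a log2 fold change of -3.21 (adjusted p = 0.000713). Library 3 was the lowest of each group for Mmp8. The primary granule list had 2 of 13 members called, both higher: Fcnb, a ficolin, at a log2 fold change of 1.97 (adjusted p = 0.0224), and Gstm1, a glutathione transferase, at 0.82 (adjusted p = 0.0375, edgeR). The median log2 fold change of the primary granule list was 0.60 in Het R525H and 0.58 in Het empty, each against WT empty. In libraries 1 and 2 alone 9 of its members rose and 1 fell in Het R525H. The summed level of this list was 3421, 3417 and 1696 CPM in libraries 1, 2 and 3 of Het R525H, 3323, 3395 and 1854 CPM in those of Het empty, and 1987, 2232 and 1547 CPM in those of WT empty. Library 3 was the lowest in all 3 groups, and its part in the count of called genes was not tested. Fcnb was not called without Het R525H library 1 or 2 (log2 fold change 1.65 and 1.91) or WT empty library 2 or 3 (2.15 and 1.63). Gstm1 was not called without Het R525H library 1 or 2 (0.64 and 0.75) or any WT empty library (0.85, 0.87 and 0.72).

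Of 16 tested genes of stem and early progenitor cells, 4 fell and 0 rose, against 3.59 percent of all genes called lower, with a median log2 fold change of -0.30. Flt3, the receptor tyrosine kinase of multipotent and lymphoid-primed progenitors, was at 202, 211 and 175 CPM in Het R525H, at 231, 259 and 211 CPM in Het empty, and at 340, 389 and 370 CPM in WT empty. The fall was to 53.5 percent of WT empty (log2 fold change -0.90, SE 0.09; adjusted p = 2.12e-05, edgeR). Kit, the receptor for stem cell factor, was at 451, 435 and 438 CPM in Het R525H, at 519, 482 and 469 CPM in Het empty, and at 511, 576 and 573 CPM in WT empty. Het R525H and Het empty were each below WT empty for Flt3, while for Kit Het empty overlapped WT empty and Het R525H lay below both. The log2 difference between Het R525H and Het empty was -0.25 for Flt3 and -0.15 for Kit, and neither was called (adjusted p = 0.727 and 0.935, edgeR). Mycn, a MYC family factor, had a log2 fold change of -0.92, Meis1, a homeobox partner of HOX proteins, of -0.56, and Pbx3, another such partner, of -0.95. Meis1 was not called when any of the Het R525H libraries was left out (log2 fold change -0.61, -0.50 and -0.60) or WT empty library 1 or 3 (-0.47 and -0.60). In libraries 1 and 2 alone, 8 of the 16 fell, in a fit that called 1904 of all genes, against 972 with all libraries.

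On the early lymphoid list 4 of 12 fell and 0 rose, on the erythroid list 1 of 8 fell and on the megakaryocyte list 1 of 9, against 3.59 percent of all genes called lower. The lymphoid list had a median log2 fold change of -0.53. Rag1, which cuts antigen receptor genes, was at 3.82, 2.70 and 3.40 CPM in Het R525H, at 5.18, 4.87 and 5.80 CPM in Het empty, and at 9.14, 10.7 and 9.92 CPM in WT empty. The 3 groups stood in this order without overlap, and Rag1 fell against WT empty by 1.59 on the log2 scale (SE 0.23; adjusted p = 0.000713), while its log2 difference from Het empty, -0.68, was not called (adjusted p = 0.716, edgeR). Cd79b, a signalling chain of the B cell receptor, and Il7r, the IL-7 receptor, had log2 fold changes of -1.27 and -2.44, and Ebf1, a B lineage factor, of -0.39. Il7r was not called without Het R525H library 1 or 2 (log2 fold change -2.30 and -2.13) or WT empty library 3 (-1.86), and Ebf1 not without Het R525H library 1 or 2 (-0.38 and -0.37) or any WT empty library (-0.41, -0.41 and -0.37). Gata1, the erythroid and megakaryocytic transcription factor, was at 0.496, 0.376 and 0.817 CPM in Het R525H, at 1.31, 0.807 and 1.30 CPM in Het empty, and at 3.74, 5.57 and 2.60 CPM in WT empty. Its log2 fold change was -2.85 (SE 0.36; adjusted p = 0.000202, edgeR). Gata1 was the only gene of the 8 on the erythroid list that edgeR called, whereas DESeq2 called 5, all lower. Of all genes DESeq2 called 1438, against 972 in edgeR. Itga2b, the platelet integrin CD41, was the only called gene of 9 on the megakaryocyte list (log2 fold change -1.79; adjusted p = 0.0214, edgeR), and was not called without Het R525H library 1 or 2 (-1.63 and -1.62) or any WT empty library (-1.79, -1.80 and -1.78). Genes of antigen-presenting cells gave 1 rise and 1 fall of 7: H2-Ab1, an MHC class II chain, was at 0.875, 1.15 and 0.545 CPM in Het R525H and at 1.12, 1.99 and 1.49 CPM in Het empty, with 2 counts in all of WT empty, a ratio of 50.4 with a counting interval from 13.5 to 422. Itgax, the CD11c chain, fell by 1.21 (adjusted p = 0.0264, edgeR), and was not called without Het R525H library 1 or 2 (-1.001 and -1.17) or WT empty library 2 or 3 (-1.22 and -1.05).

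**Figure D4:**
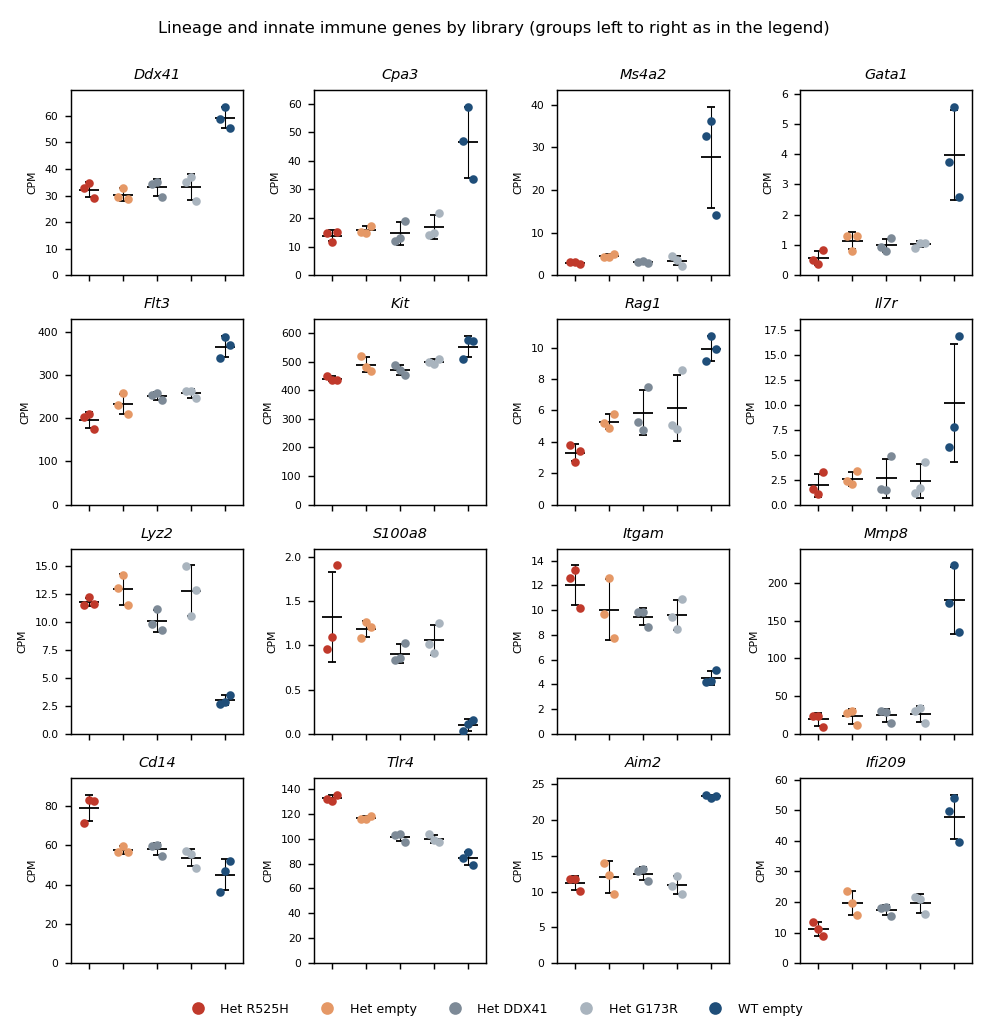
CPM per library (points), with the mean (bar) and SD (whisker, n = 3), for Ddx41 and 15 lineage and innate immune genes; axes start at 0. The Het R525H points do not overlap the WT empty points in any panel, and Ms4a2, for example, is at 3.15, 3.05 and 2.68 CPM in Het R525H against 32.7, 36.1 and 14.04 CPM in WT empty.

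Of the genes that hepatocytes, stroma and endothelium of the fetal liver would bring, 7 of 21 passed the filter on low counts. Of all genes, 3.59 percent were called lower in Het R525H and 1.75 percent in Het empty. Of these 7, 2 fell in Het empty and 2 in Het R525H, each against WT empty. Trf, transferrin, was at 5.80, 5.38 and 9.62 CPM in Het R525H, at 4.93, 6.83 and 8.87 CPM in Het empty, and at 25.5, 33.1 and 38.1 CPM in WT empty. Pdgfrb, a receptor of mesenchymal cells, was at 83.5, 79.7 and 77.8 CPM in Het R525H, at 73.2, 77.7 and 72.4 CPM in Het empty, and at 93.6, 107 and 104 CPM in WT empty. The summed level of the 7 genes was 94.5 to 103 CPM in Het R525H and 137 to 166 CPM in WT empty. Alb, Col1a1 and Cdh5 were at 0 in every library. Pecam1, another gene of endothelium, was detected in every library, with means of 2.87 TPM in Het R525H and 6.21 TPM in WT empty. Whether such cells were present was not tested. Pdgfrb was not called without Het R525H library 2 or 3 (log2 fold change -0.34 and -0.32) or WT empty library 2 or 3 (-0.31 and -0.32).

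Of the 18 tested genes of nucleic acid sensing 5 fell in Het R525H, and of the 22 interferon-stimulated genes 4 fell. Of all genes, 3.59 percent were called lower, and 0 of either list rose. Ddx41 was 1 of the 5, and its fall goes with the genotype, so it is no finding about this list. The nucleic acid sensing list had a median log2 fold change of -0.18. Apart from Ddx41, the 5 were genes of the HIN-200 family, whose proteins bind DNA or act beside it: Aim2, Ifi203, Ifi204 and Ifi209. Aim2, the sensor that starts the DNA inflammasome, was at 11.7, 11.7 and 10.03 CPM in Het R525H, at 14.05, 12.3 and 9.68 CPM in Het empty, and at 23.5, 23.1 and 23.3 CPM in WT empty. Ifi209 was at 13.4, 11.1 and 8.76 CPM in Het R525H, at 23.6, 19.7 and 15.6 CPM in Het empty, and at 49.7, 53.9 and 39.7 CPM in WT empty. Aim2 did not separate Het R525H from Het empty, while for Ifi209 the 3 groups did not overlap. Ifi209 fell against WT empty by 2.10 on the log2 scale (SE 0.19; adjusted p = 9.27e-06), and its log2 difference from Het empty was -0.82, with a 95 percent interval from -1.22 to -0.42, which did not pass the adjustment over all genes (adjusted p = 0.281, edgeR). Ifi204 was at 38.1, 37.7 and 29.6 CPM in Het R525H, at 46.5, 51.4 and 38.9 CPM in Het empty, and at 69.3, 71.1 and 66.5 CPM in WT empty. HIN-200 genes resemble each other in sequence, and how RSEM split their shared reads was not tested.

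On the interferon-stimulated list 4 of 22 tested genes fell, with a median log2 fold change of -0.39. Ifi27 was at 0.117, 0.175 and 0.136 CPM in Het R525H, at 0.192, 0.173 and 0.155 CPM in Het empty, and at 3.88, 4.07 and 5.17 CPM in WT empty. Rtp4, a chaperone induced by interferon, was at 12.8, 14.4 and 9.81 CPM in Het R525H, at 14.9, 16.2 and 10.7 CPM in Het empty, and at 30.9, 33.5 and 25.3 CPM in WT empty. Both were lower than WT empty in every Het R525H and Het empty library and overlapped between Het R525H and Het empty. Ifitm1, a membrane protein that restricts viruses, was at 464, 439 and 650 CPM in Het R525H, against 831, 953 and 873 CPM in WT empty, and Irf9, the DNA-binding part of the interferon-response factor ISGF3, fell by 0.48. In libraries 1 and 2 alone, 9 of the 22 fell and 1 rose. That fit called 1904 of all genes, against 972 with all libraries. Ifitm1 was not called without Het R525H library 1 or 2 (log2 fold change -0.71 and -0.68), nor Irf9 without Het R525H library 1 or 3 (-0.46 and -0.45) or WT empty library 1 (-0.41). Tlr4, the lipopolysaccharide receptor, was at 132, 130 and 135 CPM in Het R525H, at 116, 116 and 118 CPM in Het empty, and at 84.2, 89.4 and 78.9 CPM in WT empty. Its 3 groups did not overlap. Tlr4 rose by 0.66 against WT empty (SE 0.06; adjusted p = 1.16e-05), and its log2 difference from Het empty, 0.19, was not called (adjusted p = 0.668, edgeR). Tlr4 and Cd14 were the 2 of 18 tested genes of Toll-like receptor signalling that were called, against 3.09 percent of all genes called higher. Of 20 NF-kB genes, 1 was called, Birc3, an inhibitor of apoptosis, which fell by 0.38, against 3.59 percent of all genes called lower.

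**Figure D5:**
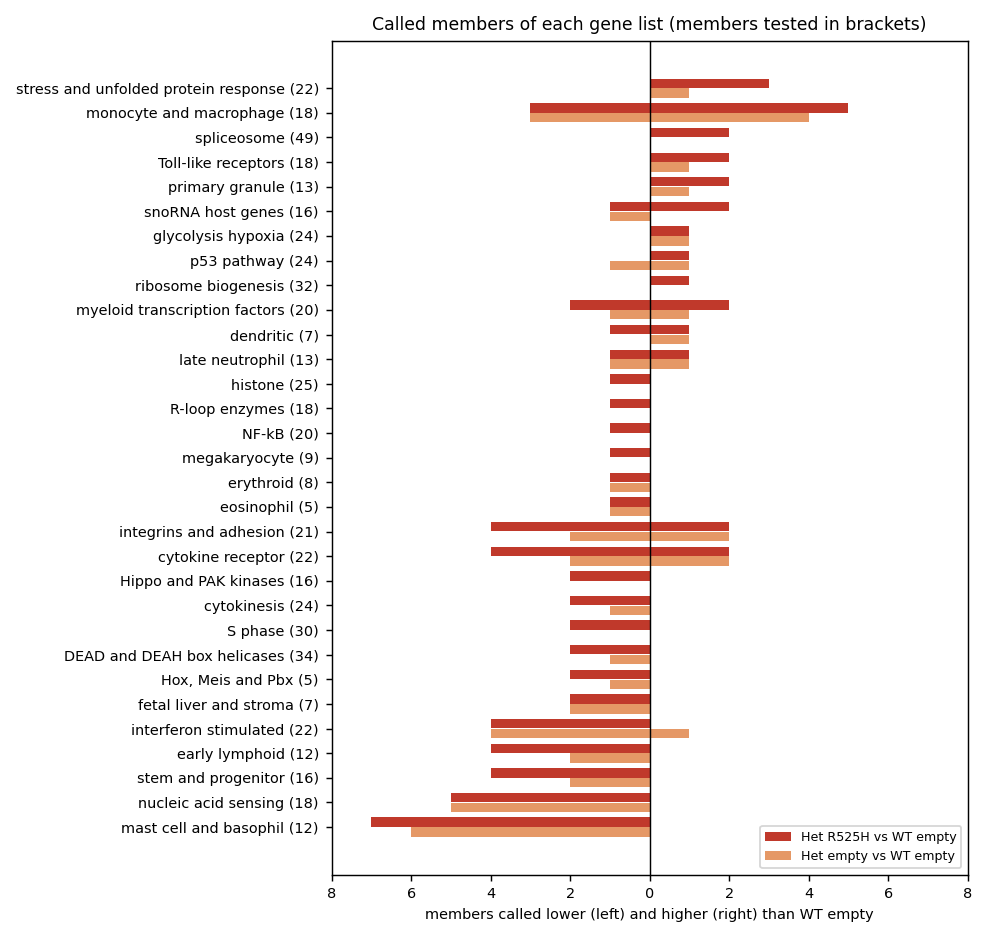
Number of genes called lower (left) and higher (right) than WT empty in each gene list with a call, for Het R525H (upper bar) and Het empty (lower bar); the number tested is in brackets. The mast cell and basophil list has the most falls, 7 of 12 in Het R525H, and the monocyte and macrophage list the most rises, 5 of 18.

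The shares of other lists are set against the same 3.09 percent of all genes called higher and 3.59 percent called lower. Of 21 tested integrin and adhesion genes 2 rose, Spon1 and Itgam, and 4 fell, Lama5, Itga2b, Itgax and Itga9, an integrin chain of progenitors that was at 20.3, 21.1 and 24.3 CPM in Het R525H, at 26.0, 26.6 and 29.1 CPM in Het empty, and at 36.7, 39.6 and 42.8 CPM in WT empty. For Itga9 the 3 groups did not overlap. Of 22 tested cytokine receptors 2 rose, Csf2ra and the TNF receptor Tnfrsf1b, and 4 fell, Flt3, Kit, Il1rl1 and Il7r. Among 20 myeloid transcription factors and their partners, Tle3 and Id1 rose and Ikzf2 and Irf5 fell. Ikzf2, the Ikaros family factor Helios, was at 27.9, 23.5 and 36.0 CPM in Het R525H, at 26.2, 24.7 and 27.5 CPM in Het empty, and at 74.1, 64.6 and 58.6 CPM in WT empty. Id1, an inhibitor of helix-loop-helix factors, was at 9.19, 10.4 and 7.49 CPM in Het R525H, at 6.37, 7.41 and 9.86 CPM in Het empty, and at 4.36, 5.35 and 4.62 CPM in WT empty. The calls of Ikzf2 and Id1 were lost without Het R525H library 2 (log2 fold change -1.05 and 0.80). Irf5, an interferon regulatory factor, had a log2 fold change of -0.44 and lost its call in each of the 6 fits that left out 1 Het R525H or WT empty library (-0.47 to -0.39).

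The spliceosome, snoRNA host, ribosome, helicase and R-loop lists gave few calls. Of 49 tested spliceosome genes 2 rose, Clk3 and the splicing factor Hnrnpa1, and 0 fell. Their log2 fold change against WT empty was above 0 in 38 of 49, with a median of 0.06. The 2 rises of 49 and the 2 falls of 34 helicases given below are near the 3.09 and 3.59 percent of all genes called higher and lower. Those counts are therefore no result about these lists. Of 16 tested genes on the snoRNA host list, Snhg1 and Snhg6 rose and Tug1 fell. Whether Tug1, a long non-coding RNA, holds snoRNAs was not checked. Snhg6 was at 40.7, 38.4 and 35.4 CPM in Het R525H, at 29.1, 32.6 and 35.1 CPM in Het empty, and at 29.2, 23.6 and 27.1 CPM in WT empty, and Tug1 had a log2 fold change of -0.21 (adjusted p = 0.049, edgeR). Ribosome biogenesis genes had a log2 fold change against WT empty above 0 in 32 of 32 in Het R525H and in 23 of 32 in Het empty. Their median was 0.14 in Het R525H, against -0.01 over all genes, and 0.04 in Het empty. The list had 1 call in Het R525H, Npm1, the nucleolar protein nucleophosmin. Npm1 was at 2843, 2714 and 3201 CPM in Het R525H, at 2553, 2692 and 2735 CPM in Het empty, and at 2265, 2490 and 2332 CPM in WT empty. Genes of ribosomal proteins were above 0 in 73 of 81 in Het R525H and in 69 of 81 in Het empty. Their median was 0.12 in Het R525H and 0.05 in Het empty. For Het R525H edgeR called 0, with 14 higher at an unadjusted p under 0.05, and DESeq2 called 2, both higher. Rpl4, for example, averaged 2696 ± 221 CPM in Het R525H, 2424 ± 78 CPM in Het empty and 2369 ± 201 CPM in WT empty (SD, n = 3 each), which was not called (adjusted p = 0.178, edgeR). Of 34 DEAD and DEAH box helicases 30 were above 0 against WT empty in Het R525H and 24 in Het empty, with medians of 0.10 and 0.03. The lean above 0 was thus not particular to the ribosome lists, and the share of all genes above 0 was not counted. Of the 34 helicases 2 fell: Ddx41, whose fall goes with the genotype, and Ddx5. Ddx5, a helicase of splicing and transcription, was at 1080, 1074 and 1073 CPM in Het R525H, at 1165, 1182 and 1236 CPM in Het empty, and at 1226, 1260 and 1264 CPM in WT empty. Ddx5 was also the only called gene of 18 that act on R-loops. Hnrnpa1 was not called without Het R525H library 1 or 3 (log2 fold change 0.25 and 0.22) or WT empty library 1 or 3 (0.22 and 0.24), nor Npm1 without Het R525H library 3 (0.23) or WT empty library 1 or 3 (0.27 and 0.29). Ddx5 was not called without Het R525H library 1 or 2 (-0.23 and -0.22) or WT empty library 3 (-0.21), nor Snhg6 without Het R525H library 1 (0.46) or WT empty library 2 (0.43). Tug1 was not called when any Het R525H library was left out (-0.23, -0.21 and -0.19) or WT empty library 1 or 3 (-0.16 and -0.23).

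Of 25 genes of G2 and mitosis edgeR called 0, with 2 at an unadjusted p under 0.05, and DESeq2 called 1, which was higher. Mki67, the proliferation marker, averaged 767 ± 39 CPM in Het R525H, 897 ± 66 CPM in Het empty and 862 ± 35 CPM in WT empty (SD, n = 3 each), a log2 fold change of -0.17 against WT empty that was not called (adjusted p = 0.231, edgeR). Of 24 genes of cytokinesis and abscission 2 fell, and of 30 of S phase 2, against 3.59 percent of all genes called lower, so neither share is a result about its list. The cytokinesis genes that fell were Cep55 and Vps4b, an ATPase of the same abscission machinery. Vps4b was at 165, 162 and 170 CPM in Het R525H, at 163, 169 and 166 CPM in Het empty, and at 191, 205 and 209 CPM in WT empty, so that it was lower in both heterozygous groups, whereas Cep55 was lower in Het R525H and overlapped WT empty in Het empty. Of the S-phase genes that fell, Pole, the catalytic subunit of the leading-strand polymerase, was at 183, 180 and 181 CPM in Het R525H, at 206, 199 and 203 CPM in Het empty, and at 213, 218 and 225 CPM in WT empty. The other, Tyms, thymidylate synthase, averaged 94.9 ± 6.3 CPM in Het R525H, 121 ± 1.7 CPM in Het empty and 122 ± 5.3 CPM in WT empty (SD, n = 3 each). A model of the Het R525H and WT empty libraries alone did not call Pole or Vps4b, and Tyms lost its call in each of the 6 fits that left out 1 Het R525H or WT empty library (log2 fold change -0.41 to -0.32). Of 16 tested genes of the Hippo pathway and PAK kinases, 2 fell, Stk4 and Pak2. Of 25 tested histone genes 20 were above 0 in Het R525H against WT empty, with a median log2 fold change of 0.20. That median was -0.19 without Het R525H library 2. In Het empty 23 of 25 were above 0, with a median of 0.43, and in the direct comparison 24 of 25 were below 0. The 1 histone gene called fell: H1f0, the linker histone of slowly dividing cells, at 22.5, 23.7 and 25.2 CPM in Het R525H, at 32.0, 35.7 and 46.2 CPM in Het empty, and at 32.9, 41.1 and 42.1 CPM in WT empty. Its Het R525H libraries lay below those of both other groups, and its log2 difference from Het empty, -0.67, was not called (adjusted p = 0.188, edgeR). Of 24 targets of p53, 1 rose, the kinase Plk2, which was at 11.3, 9.99 and 29.8 CPM in Het R525H, at 11.5, 12.1 and 28.0 CPM in Het empty, and at 1.57, 1.69 and 3.09 CPM in WT empty, with library 3 the highest in each group. Plk2 was not called without Het R525H library 3 (log2 fold change 2.32) or WT empty library 1 or 2 (2.81 and 2.84).

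Genes of the integrated stress response and the unfolded protein response gave 3 rises and 0 falls of 22, with 20 of 22 above 0 and a median log2 fold change of 0.29. In Het empty against WT empty, 21 of the 22 were above 0, with a median of 0.17. Mthfd2, a mitochondrial enzyme of folate metabolism and a target of ATF4, was at 187, 193 and 194 CPM in Het R525H, at 151, 160 and 183 CPM in Het empty, and at 107, 120 and 133 CPM in WT empty. The 3 groups did not overlap, and Mthfd2 rose by 0.67 against WT empty (SE 0.09; adjusted p = 0.000382), with a log2 difference from Het empty of 0.22 (95 percent interval from 0.02 to 0.41; adjusted p = 0.935, edgeR). The chaperones Hspa5 and Hsp90b1 of the endoplasmic reticulum rose by 0.28 and 0.33. Hspa5 lost its call in each of the 6 fits that left out 1 library (0.21 to 0.31), and Hsp90b1 without Het R525H library 1 or 3 (0.33 and 0.27) or WT empty library 1 or 3 (0.30 and 0.29). In libraries 1 and 2 alone, 11 of the 22 rose. That fit, also used for the lists below, called 1904 of all genes, against 972 with all libraries. Of 24 genes of glycolysis and hypoxia 1 rose, Slc16a3, a lactate exporter at 59.96, 68.9 and 93.9 CPM in Het R525H, at 52.2, 73.6 and 103 CPM in Het empty, and at 19.8, 21.2 and 43.1 CPM in WT empty. The median log2 fold change of this list was 0.37, and in libraries 1 and 2 alone 16 of the 24 rose. Library 3 was the highest of each group for Slc16a3, which was not called when any Het R525H library was left out (1.53, 1.45 and 1.19) or WT empty library 1 or 2 (1.20 and 1.23). Neither edgeR nor DESeq2 called a gene among 13 heat shock genes, 25 of cholesterol and fatty acid synthesis, 24 immediate early genes, 13 genes of the mitochondrial genome and 6 structured non-coding RNAs. In edgeR 4, 1, 3, 0 and 0 of them had an unadjusted p under 0.05. In libraries 1 and 2 alone, 3 heat shock genes rose, 5 of cholesterol and fatty acid synthesis rose and 1 fell, and 6 immediate early genes rose and 1 fell, while 0 were called on the mitochondrial and structured RNA lists.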

How the data were processed

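RNA was sequenced from 15 samples, 3 in each of 5 groups taken with their replicate numbers from the sample titles. The authors deposited 1 table per sample; RSEM made it, per the submitters' processing notes. Which version, aligner, build and annotation were used, and whether counting used strand, is not given in the sources used here. Genes that overlap another on the opposite strand or share near-identical copies are therefore uncertain. The authors deposited expected counts that need not be whole, besides TPM and FPKM, which RSEM normalizes per length per the file headers; TPM was read for markers, and FPKM was not used.

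Expected counts were rounded, and edgeR 4.0.16 (R 4.3.3) was used with TMM scaling, filterByExpr by group (14548 of 55359 genes), 1 quasi-likelihood model of all 15 libraries with group as the only term, and Benjamini-Hochberg adjustment over the genes tested, called at an adjusted p under 0.05. Comparisons are contrasts of this model, and those of Het R525H and of Het empty with WT empty share the WT empty libraries. SEs come from the log2 fold change and the F statistic. Common dispersion was 0.0369. The deviations of same-numbered Het empty and WT empty libraries correlated at 0.490, 0.453 and 0.358, a pairing seen in the data and not stated by the labels; that of Het R525H and WT empty did not reach 0.1 in every pair. No 2 libraries of a group agreed within sampling noise (chi-square per degree of freedom at least 15.2). No label says that replicates are separate cultures, so p-values reflect only sample-to-sample spread, perhaps technical. The scripts were tested on simulated data.

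Alternatives were DESeq2 1.42.0, DESeq2 size factors in edgeR, limma 3.58.1 (voom), no filter on low counts, the compared groups alone, the replicate number as a block, libraries 1 and 2 alone, and each library left out. Genes were named by rule: Ddx41, the 10 largest rises and falls with no overlap and 5 CPM or more in the higher group, the 8 higher and 8 lower genes with the smallest direct p among those called in Het R525H alone, and up to 4 called members of each of 38 gene lists; Ly6c2, Ccr2, Fn1, Slc18a2, Tnfrsf1b and the genes at the border of the selection were named after their values were seen. The members and lists were chosen with earlier results of these data known. List counts in libraries 1 and 2 alone were added after the data were seen. Promoter windows are from RefSeq's annotation of GRCm38.p6.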

Additional observations from a re-analysis of the deposited data

Results flagged for a closer look

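For Pak2 and Cep55, the difference of Het R525H from WT empty was unlike that of Het empty from the same WT empty libraries, by the direct test of Het R525H against Het empty in edgeR. The log2 difference was -0.54 for Pak2 (adjusted p = 0.0187) and -0.60 for Cep55 (adjusted p = 0.0308), and in both genes 3 of 3 Het R525H libraries were below all Het empty libraries. Of all genes tested, 11.6 percent did not overlap between these groups. For Cep55, Het R525H overlapped Het DDX41. The log2 fold change against WT empty was -0.49 in Het R525H and 0.06 in Het empty for Pak2, and -0.57 in Het R525H and 0.03 in Het empty for Cep55.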

How the results depend on the processing

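Alternative runs followed 98 named genes in Het R525H against WT empty, and against Het empty only the 16 named by their direct p. Genes named after their values were seen were not among them. No log2 fold change of those followed changed sign. Medians of gene lists near 0 did: that of the G2 and mitosis list, -0.0022, was 0.0756 without Het R525H library 3, 0.0473 without WT empty library 2 and 0.0008 with DESeq2 size factors. The 972 genes called between Het R525H and WT empty became 984 with DESeq2 size factors, 1438 with DESeq2, 923 with limma-voom, 790 without the filter on low counts, 610 in a model of the compared groups alone and 1904 in libraries 1 and 2 alone; leaving out 1 library gave 604 to 754 for libraries of these 2 groups. The 532 of Het empty against WT empty became 804 with DESeq2 and 1068 in libraries 1 and 2 alone, and 372 to 459 without 1 library of its groups. The 502 called in Het R525H alone became 758 with DESeq2 and 969 in libraries 1 and 2 alone, and 225 to 571 without 1 library. The 2 genes called between Het R525H and Het empty became 60 with DESeq2, 5 without the filter, 0 in a model of these groups alone and 19 in libraries 1 and 2 alone, and 0 to 3 without 1 library; they were 0 without Het R525H library 2 or 3 or Het empty library 1, and 1 without Het empty library 2. The log2 fold change of Ddx41 ran from -0.95 to -0.82 without 1 library and stayed called. Of 98 named genes, the call against WT empty was lost for 1 with DESeq2 size factors, 4 with limma-voom (Aldh1l2, Fcnb, Plk2 and Tug1), 11 without the filter, 17 in the compared groups alone and 3 in libraries 1 and 2 alone. The cause was not tested. With the replicate number as a block, 2522 genes were called between Het R525H and WT empty, 1352 between Het empty and WT empty, 63 between Het R525H and Het empty, and 1358 in Het R525H alone; the block called 12 of the 14 named genes that edgeR left uncalled between Het R525H and Het empty, and 5 of 8 erythroid genes, all lower, between Het R525H and WT empty. DESeq2 called all 14. The deviations of same-numbered Het R525H and WT empty libraries correlated at 0.023, 0.240 and 0.365, and number 1 did not correlate best with its own number, so Het R525H and WT empty were taken to share only a number; those of Het R525H and Het empty were 0.068, 0.336 and 0.380. DESeq2 size factors moved the median of all genes by 0.0028 on the log2 scale. Depth limits genes under a few counts, such as those at 0 in WT empty, to bounds.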
